A study of Homo sapiens with 15 samples.

Results

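The 10 genes described here encode ligands of the epidermal growth factor (EGF) receptor family (AREG, EREG, HBEGF, TGFA, BTC and NRG1), 3 of the receptors (EGFR, ERBB2 and ERBB3) and the feedback inhibitor ERRFI1. They were chosen by gene symbol out of 58219 genes in the count table, with earlier results of these data known. All 10 passed the filter on low counts that left 17599 genes. RNA was sequenced from BEAS-2B, an immortalized line of human bronchial epithelial cells that was grown on collagen in serum-free bronchial epithelial growth medium. For 24 h, cells had fresh medium only (Control_24h), medium with 1 µg/cm2 of PM2.5 (PM_24h_1dose) or medium with 30 µg/cm2 of PM2.5 (PM_24h_30dose). In a repeated protocol with fewer cells plated and a wash every day, cells received medium alone (Control_7d) or 1 µg/cm2 of PM2.5 daily for 7 days (PM_7d_1dose), although the study's methods describe 1 exposure fewer. PM2.5 is the fine fraction of airborne particles, and here it was a water extract of filters exposed to the air of Beijing. Each condition was repeated in 3 experiments, which the sample names number 1 to 3, so that 15 libraries in 5 groups were compared. All groups are the same line, and no group carries a genetic change.

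EGF-family ligands are made as membrane-bound precursors, released by metalloproteases such as ADAM17, and bind receptor tyrosine kinases that signal as dimers through the ERK and PI3K pathways. In airway epithelium this signalling is known for its part in wound closure, proliferation and mucus production, and the ligands can act on the cell that made them. The medium held the manufacturer's growth factors in every group, controls included. Such medium is known to contain EGF, a ligand of EGFR, but the study does not name the supplements.

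The depth of a library was 21460981 to 34724765 reads assigned to genes (median 29243177), and 3 counts in a library equal 0.0864 to 0.140 CPM (counts scaled by edgeR to a common library size), a limit that covers counting error only. The libraries of 24-h experiment 2 stood apart from those of experiments 1 and 3 in all 3 conditions. Within a group, a chi-square test of the counts gave 76.6 to 181 per degree of freedom for experiment 2 against either of the others and 4.44 to 18.1 for experiment 1 against experiment 3. In the 7-day protocol, the library of experiment 3 after daily PM2.5 gave 25.5 and 19.7 against experiments 1 and 2. Those of experiments 1 and 2 gave 4.69 against each other, and the 7-day controls gave 4.32 to 5.11. At 24 h, EREG, TGFA, NRG1, EGFR and ERRFI1 were lowest in experiment 2 in every condition, a pattern that 26.9% of tested genes had, and ERBB2 was highest in experiment 2 in every condition, as were 25.5% of tested genes. Results for the 10 genes are therefore also given without the 3 libraries of 24-h experiment 2, or with the experiment number as a block, where either changes a call. The keratins, CDH1, EPCAM and TP63 were detected in every library, while the markers of differentiated airway cells were at or near 0, with no count of SCGB1A1 (club cells) and at most 0.394 CPM of MUC5AC (goblet cells) and 0.173 CPM of FOXJ1 (ciliated cells).

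AREG was the most abundant ligand transcript. In the 24-h controls, AREG stood at 110 ± 8.65 TPM (the level per length of exon, scaled to the same total in every library; mean ± SD, n = 3), above ERRFI1 at 88.0 ± 12.3, EGFR at 65.8 ± 25.8 and ERBB2 at 56.2 ± 7.43 TPM. EREG followed at 17.6 ± 9.59 TPM, then ERBB3 at 7.27 ± 1.20, TGFA at 7.12 ± 3.27 and HBEGF at 7.07 ± 1.62 TPM, and BTC and NRG1 were lowest at 0.540 ± 0.0228 and 0.532 ± 0.272 TPM. AREG ranked first in each of these 3 libraries, whereas EGFR and ERBB2, the group of EREG, ERBB3, TGFA and HBEGF, and the pair of BTC and NRG1 changed places between experiments. The 6 ligands summed to 143 ± 9.50 TPM in the 24-h controls, of which AREG made up 77.4% and EREG 12.1% on average. After 30 µg/cm2 the sum was 402, 146 and 393 TPM in experiments 1 to 3, with an AREG share of 63.0% and an EREG share of 23.9%. In both 7-day groups EREG was a smaller part of the sum, at 5.34% in the controls and 4.93% after daily PM2.5, and HBEGF (10.3% and 11.1%) and TGFA (11.5% and 12.1%) were larger parts than in any 24-h group. These shares were not tested.

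**Figure D1:**
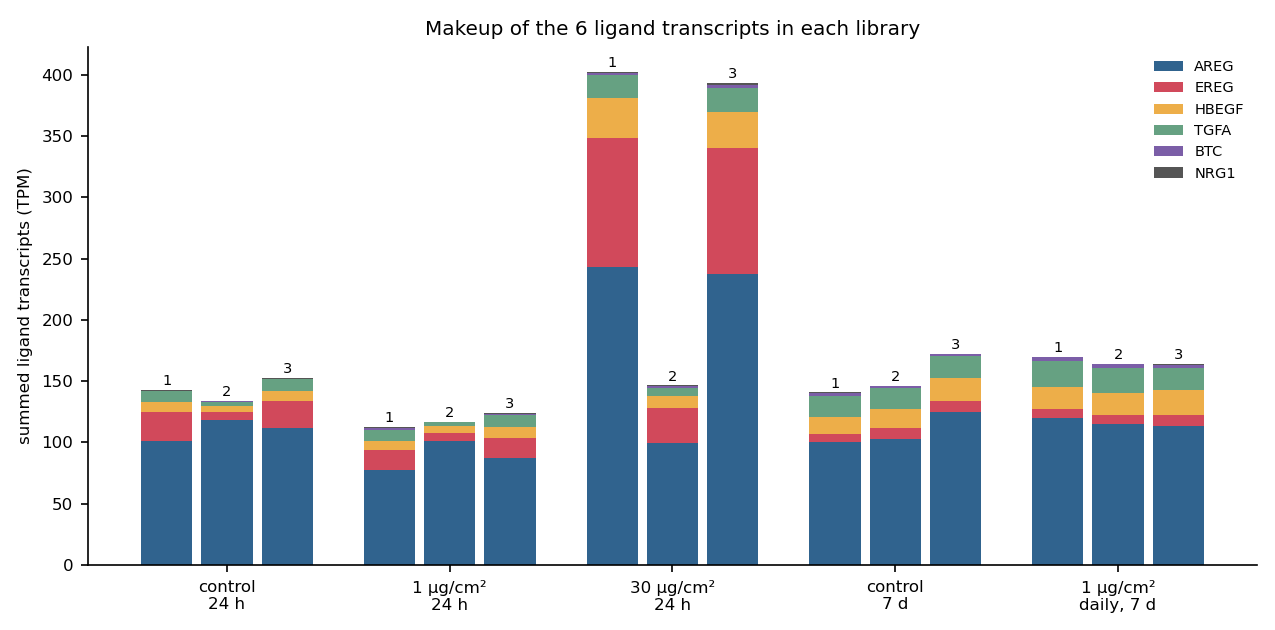
Summed level of the 6 ligand transcripts (TPM, linear axis from 0) in each of the 15 libraries, with 1 bar per library, the experiment number above it and the ligands stacked in colour. The sums at 30 µg/cm2 reached 402 and 393 TPM in experiments 1 and 3 and 146 TPM in experiment 2, while the other 12 libraries lay between 112 and 172 TPM.

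The first comparison asked what a single exposure to 30 µg/cm2 of PM2.5 did to these genes at 24 h. EREG, HBEGF, BTC and AREG rose and ERBB3 fell, so that 5 of the 10 genes passed both thresholds (an adjusted p under 0.05, from edgeR's quasi-likelihood test with Benjamini-Hochberg adjustment over all 17599 genes, and a log2 fold change of at least 0.6 in size, which is 1.5-fold). Of all tested genes, 8.07% passed in this comparison, with 3.82% higher and 4.24% lower. The median log2 fold change was 0.86 over the 10 genes and 0.03 over all tested genes. In 4 of the 10 genes the treated libraries did not overlap the controls (EREG, HBEGF and BTC higher, ERBB3 lower), as in 22.8% of all tested genes. In a fit of the 6 libraries of this comparison alone none of the 10 passed, with edgeR adjusted p-values of 0.0501 (BTC) to 0.185 (AREG) for the 5, and 360 of all genes did. Because this is bulk RNA, a change in the number of cells that make a transcript and a change in RNA per cell cannot be told apart.

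EREG encodes epiregulin, a ligand of EGFR and ERBB4, and it changed most. Its CPM in experiments 1, 2 and 3 was 37.5, 11.4 and 37.0 in the controls and 156, 57.8 and 161 after 30 µg/cm2. The lowest treated library, that of experiment 2, was above every control, and the rise within each experiment was similar, at 2.06, 2.35 and 2.13 on the log2 scale. The fitted change was 4.36-fold (log2 2.13 ± 0.44 SE, edgeR adjusted p = 0.00727).

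AREG encodes amphiregulin, an EGFR ligand known for its part in epithelial repair. Its CPM was 45.0, 58.8 and 54.5 in the controls and 104, 58.2 and 107 after 30 µg/cm2. AREG thus about doubled in experiments 1 and 3 (log2 1.21 and 0.98) and did not rise in experiment 2 (log2 -0.01), where the treated value lay inside the range of the controls. The fitted change of 1.70-fold (log2 0.77 ± 0.23 SE) had an edgeR adjusted p of 0.0466, close to the threshold. Without the libraries of experiment 2 it was 1.07 (adjusted p = 4.53e-06), and with any 1 library left out the call was kept in only 3 of 15 fits, those without experiment 1 or 2 at 1 µg/cm2 or without experiment 2 at 30 µg/cm2. Over all alternatives its adjusted p ranged from 4.53e-06 to 0.209.

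AREG (ENSG00000109321.10, chromosome 4 from 74445134 to 74455009, plus strand) and EREG (ENSG00000124882.3, chromosome 4 from 74365143 to 74388751, plus strand) lie 56382 bases apart, and BTC lies 289749 bases beyond AREG on the same chromosome. The stretches of 30 bases around the motif matches just before both transcription starts are shown because these neighbouring genes rose in the same comparison. They are from RefSeq on GRCh38.p14, 5′ to 3′ on the plus strand, with the motif in capitals.
AREG, chr4:74445060-74445089, cAMP response element: cggccgggcctTGACGTCAtgggctgcggc
AREG, chr4:74445096-74445125, TATA box: ccggctgagccTATAAAgcggcaggtgcgc
EREG, chr4:74365102-74365131, TATA box: gggctccctagTATAAAgttcgcagcacca
The TATA box (TATAAA, plus strand of the gene only) started 29 bases before the start of AREG and 32 bases before that of EREG. It was found in 3 of the 8 genes whose promoters were searched (ERBB3 and NRG1 were not) and in 7.33% of 35116 promoters of 300 bases. The 3 were AREG, EREG and a promoter that lies within EGFR (near 55109682, where the gene starts at 55019021). The cAMP response element (TGACGTCA, either strand) was found in AREG, 65 bases before the start, and in 1.85% of all promoters. The AP-1 site (TGANTCA, either strand) was found in the same promoter within EGFR, in ERBB2 and in 7.71% of promoters. Neither the core of the antioxidant response element (TGACNNNGC, 13.3% of promoters) nor the dioxin response element (TNGCGTG, 5.51%) was found in any of the 8. A gene was counted if any of its promoters matched, while the shares are per promoter, so the counts and shares are in unlike units. These matches describe letters in windows of 300 bases, and no binding was measured.

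HBEGF (ENSG00000113070.7, chromosome 5 from 140332843 to 140346631, minus strand) encodes a heparin-binding ligand of EGFR and ERBB4. Its CPM was 6.20, 4.80 and 7.48 in the controls and 25.6, 9.95 and 24.7 after 30 µg/cm2. Every treated library was above every control, although the rise in experiment 2 (log2 1.05) was smaller than in experiments 1 and 3 (log2 2.05 and 1.72). The fitted change was 3.25-fold (log2 1.70 ± 0.29 SE, edgeR adjusted p = 0.00224).

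BTC (ENSG00000174808.11, chromosome 4 from 74744759 to 74794686, minus strand) encodes betacellulin, which also binds EGFR and ERBB4. It was expressed at a low level, with 13, 10 and 13 counts in the controls and 36, 41 and 37 counts after 30 µg/cm2. These equal 0.391, 0.471 and 0.461 CPM in the controls and 1.18, 1.42 and 1.77 CPM after treatment. The groups did not overlap, and the rise in experiment 2 (log2 1.59) matched that in experiment 1 (log2 1.60). The fitted change was 3.29-fold (log2 1.72 ± 0.32 SE, edgeR adjusted p = 0.00405).

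TGFA and NRG1 did not pass the test when all libraries were fitted without a block. TGFA (ENSG00000163235.15, chromosome 2 from 70447280 to 70554193, minus strand) encodes transforming growth factor alpha, a high-affinity EGFR ligand. Its CPM was 11.7, 5.04 and 13.6 in the controls and 24.2, 12.1 and 26.6 after 30 µg/cm2, and the treated library of experiment 2 lay within the controls. Its log2 difference was 1.04 ± 0.40 SE (edgeR adjusted p = 0.123). NRG1 (ENSG00000157168.18, chromosome 8) encodes neuregulin 1, which binds ERBB3 and ERBB4. Its CPM was 2.02, 0.753 and 2.41 in the controls and 4.37, 1.80 and 3.97 after 30 µg/cm2, with a log2 difference of 0.95 ± 0.48 SE (edgeR adjusted p = 0.252). In both genes each experiment taken alone was higher after treatment, by 0.97 to 1.26 on the log2 scale for TGFA and 0.72 to 1.26 for NRG1. With the experiment number as a block both rose, TGFA by 1.08 ± 0.12 SE (edgeR adjusted p = 3.04e-05) and NRG1 by 1.00 ± 0.22 SE (edgeR adjusted p = 0.00410), which brought the called genes to 7 of 10, beside 15.2% of all tested genes with the block. Both also passed without the libraries of experiment 2 (log2 0.99 and 0.91), again 7 of 10, beside 19.1% of all tested genes. Over all alternatives the adjusted p ranged from 4.98e-06 to 0.366 for TGFA and from 0.00410 to 0.582 for NRG1.

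**Figure D2:**
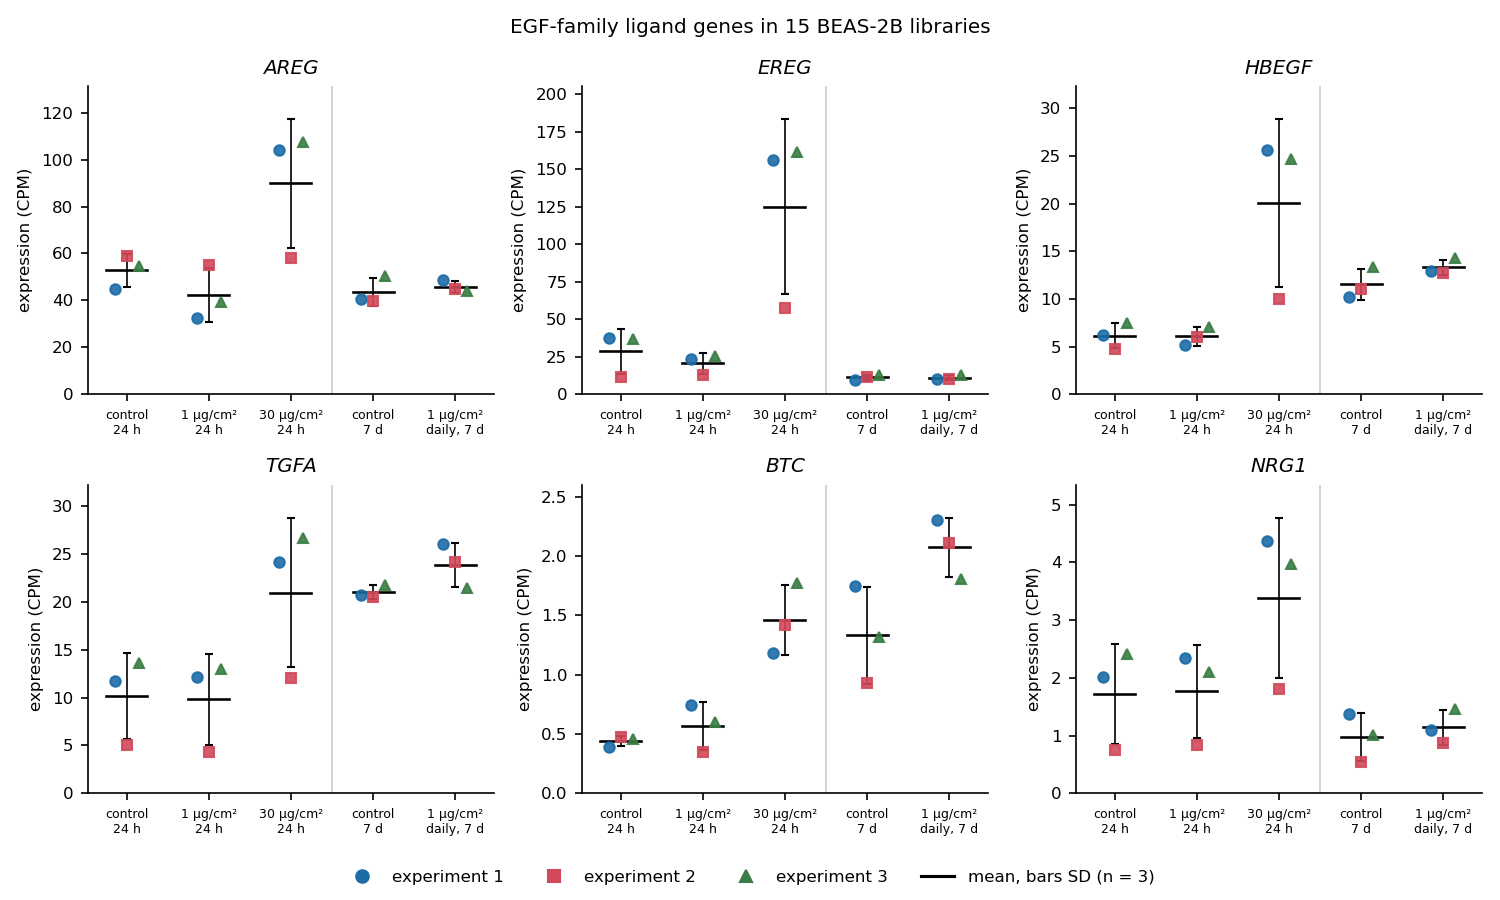
Expression of the 6 ligand genes (CPM, linear axes from 0) in the 5 groups, with 1 point per library marked by its experiment, and the mean and SD of 3 libraries as lines. EREG at 30 µg/cm2 stood at 57.8 to 161 CPM against 11.4 to 37.5 CPM in the 24-h controls. Within each 24-h condition, the square of experiment 2 lies below the other points for EREG, TGFA and NRG1.

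Among the receptors, ERBB3 fell and EGFR and ERBB2 did not pass the test. ERBB3 (ENSG00000065361.14, chromosome 12 from 56079857 to 56103505, plus strand) encodes a neuregulin receptor that has little kinase activity of its own and couples to PI3K when paired with another receptor. Its CPM was 17.2, 22.1 and 15.5 in the controls and 7.72, 12.2 and 8.76 after 30 µg/cm2, so that the highest treated library was below the lowest control. ERBB3 was 1.91-fold lower (log2 -0.93 ± 0.17 SE, edgeR adjusted p = 0.00291), with falls of 1.16, 0.859 and 0.821 on the log2 scale in experiments 1 to 3. Its share of the summed TPM of the 3 receptors was 5.74% in the controls and 3.25% after 30 µg/cm2.

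EGFR (ENSG00000146648.17, chromosome 7 from 55019021 to 55211628, plus strand), the common receptor of most of these ligands, stood at 312, 153 and 241 CPM in the controls and 341, 139 and 326 CPM after 30 µg/cm2. The spread between experiments was larger than any change, and the log2 difference was 0.19 ± 0.35 SE (edgeR adjusted p = 0.798). ERBB2 (ENSG00000141736.13, chromosome 17 from 39687914 to 39730426, plus strand), which has no known ligand of its own and serves as a dimer partner, stood at 149, 202 and 155 CPM in the controls and 129, 161 and 127 CPM after treatment. ERBB2 was lower in each experiment, by 0.204 to 0.322 on the log2 scale, and the fitted log2 difference was -0.28 ± 0.14 SE (edgeR adjusted p = 0.270). With the block its adjusted p was 0.0162, but the size of the difference (-0.27) stayed under the threshold of 0.6. The exons of ERBB2 share 571 bases with MIEN1 and 194 bases with PGAP3 on the other strand, 5.53% and 1.88% of its length, and the strand used in counting is not given in the sources used here.

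ERRFI1 (ENSG00000116285.12, chromosome 1 from 8004404 to 8026308, minus strand) encodes MIG6, which binds and inhibits the EGFR kinase and is itself a target of EGFR signalling. Its CPM was 112, 94.7 and 112 in the controls and 154, 72.8 and 148 after 30 µg/cm2. It was thus higher in experiments 1 and 3 (log2 0.46 and 0.41) and lower in experiment 2 (log2 -0.38), and the fitted log2 difference was 0.24 ± 0.23 SE (edgeR adjusted p = 0.595). AREG, EGFR and ERRFI1 were the genes whose sign differed between experiments in this comparison.

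**Figure D3:**
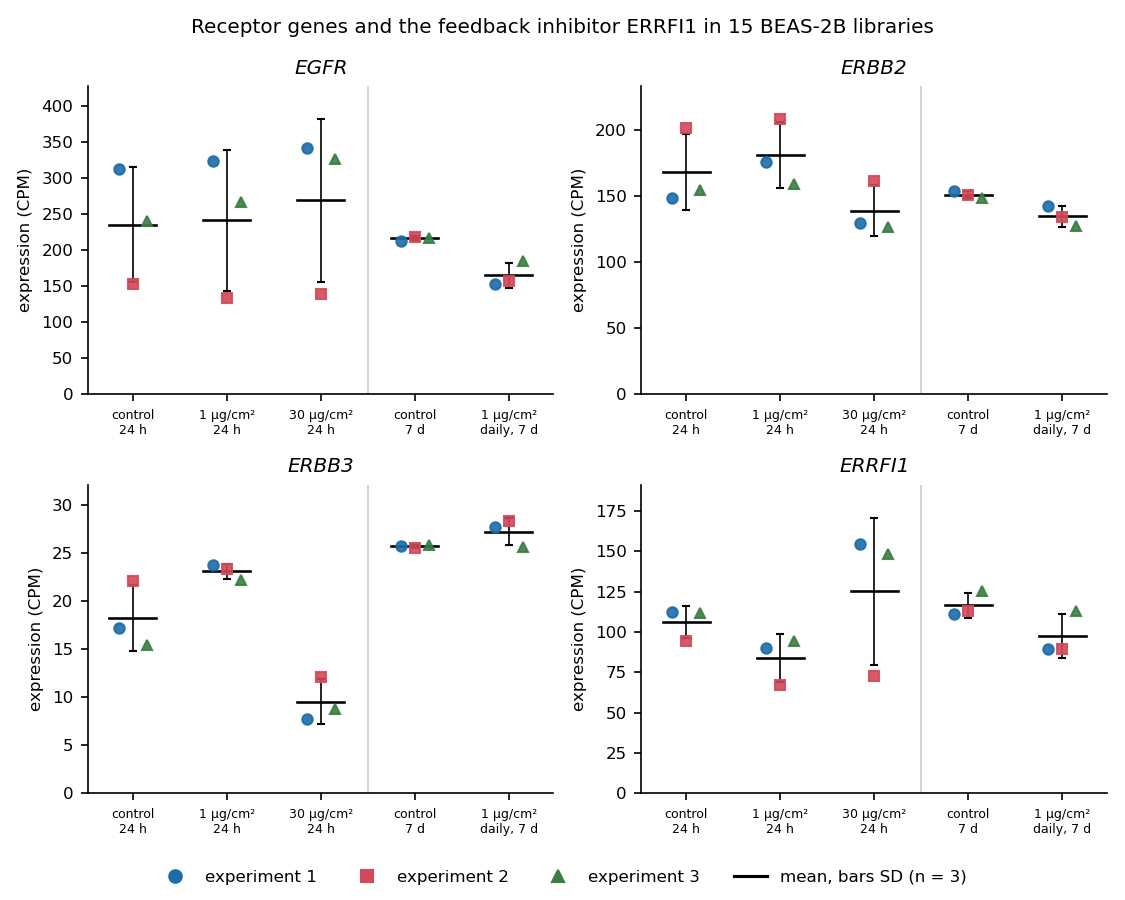
Expression of the 3 receptor genes and of ERRFI1 (CPM, linear axes from 0) in the 5 groups, with 1 point per library marked by its experiment, and the mean and SD of 3 libraries as lines. ERBB3 at 30 µg/cm2 lies at 7.72 to 12.2 CPM, below the 12 other libraries, and EGFR in experiment 2 lies at 133 to 153 CPM in all 3 conditions at 24 h.

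**Figure D4:**
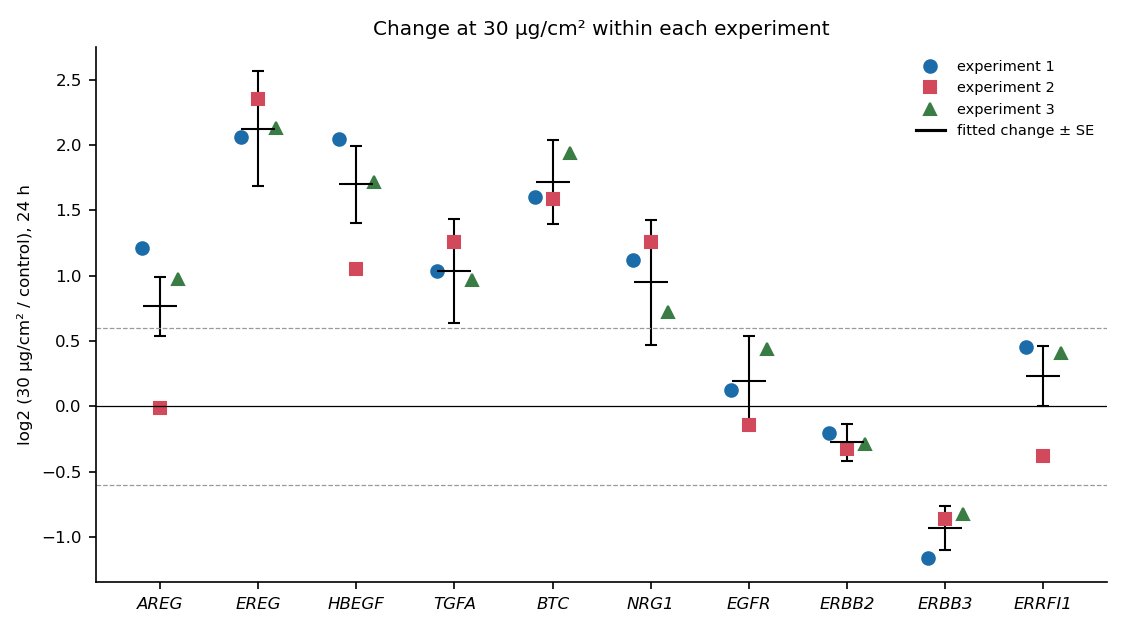
Log2 ratio of 30 µg/cm2 to control at 24 h within each experiment (points) and the fitted log2 fold change with its SE (lines) for the 10 genes, with dashed lines at the thresholds of 0.6 and -0.6. EREG, BTC, TGFA and ERBB3 moved by similar amounts in the 3 experiments, and AREG ranged from -0.01 to 1.21.

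The next comparison asked whether 1 µg/cm2 of PM2.5 for 24 h changed the same genes. None of the 10 passed both thresholds in edgeR, DESeq2 or edgeR's likelihood ratio test, and none had an unadjusted p under 0.05 in edgeR; of all tested genes, 0.0625% passed (11 genes, and 534 had an unadjusted p under 0.05). The median log2 difference was 0.01 over the 10 genes, as over all tested genes. AREG stood at 32.6, 55.0 and 39.3 CPM, EREG at 23.6, 12.6 and 25.5 CPM and HBEGF at 5.13, 6.05 and 7.09 CPM after 1 µg/cm2. Each of these ranges overlapped its controls, and the log2 differences were -0.32 ± 0.23, -0.48 ± 0.43 and -0.02 ± 0.29 (SE). TGFA stood at 12.1, 4.36 and 13.0 CPM, BTC at 0.748, 0.347 and 0.597 CPM and NRG1 at 2.35, 0.843 and 2.11 CPM, with log2 differences of -0.04, 0.39 and 0.03.

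ERBB3 stood at 23.8, 23.4 and 22.3 CPM after 1 µg/cm2, above all 3 controls, with a log2 difference of 0.34 ± 0.16 SE (unadjusted p = 0.0555). ERRFI1 stood at 90.2, 66.9 and 94.5 CPM, below all 3 controls, with a log2 difference of -0.34 ± 0.23 SE. EGFR (323, 133 and 267 CPM) and ERBB2 (176, 209 and 160 CPM) overlapped their controls. These 2 of 10 genes without overlap compare with 4.44% of all tested genes. Without the libraries of experiment 2, ERBB3 (0.50), AREG (-0.46) and EREG (-0.59) had edgeR adjusted p-values of 0.00576, 0.0447 and 0.00778, each at a size under 0.6, so that still none of the 10 was called.

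Compared directly with 1 µg/cm2, 30 µg/cm2 gave calls in the 5 genes named above, 4 higher and 1 lower. Of all tested genes 7.84% passed, 3.62% higher and 4.22% lower. AREG was 2.13-fold (log2 1.09 ± 0.23 SE, edgeR adjusted p = 0.00854), EREG 6.07-fold (2.60 ± 0.45, adjusted p = 0.00278), HBEGF 3.29-fold (1.72 ± 0.29, adjusted p = 0.00263) and BTC 2.51-fold higher (1.33 ± 0.32, adjusted p = 0.0163), and ERBB3 was 2.42-fold lower (-1.28 ± 0.17, adjusted p = 0.000483). In all 5 the libraries of the higher concentration did not overlap those of the lower one, as in 21.6% of all tested genes. AREG rose by only 0.08 on the log2 scale in experiment 2, against 1.67 and 1.45 in experiments 1 and 3. In a fit of these 6 libraries alone, ERBB3 passed (edgeR adjusted p = 0.0490) and the 4 ligands did not (0.0601 to 0.170). The share of all tested genes that passed in that fit is not given here. The block added TGFA (1.14 ± 0.12 SE) and NRG1 (0.96 ± 0.22 SE) to the calls, 7 of 10 beside 15.6% of all tested genes, and leaving out experiment 2 also added ERRFI1 (log2 0.69, edgeR adjusted p = 7.20e-05), 8 of 10 beside 17.3%. Both comparisons share the libraries at 30 µg/cm2, so they are not independent of each other.

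Daily exposure to 1 µg/cm2 for 7 days, compared with the control of the same protocol, changed none of the 10 genes past both thresholds (0.227% of all tested genes passed). This was so in edgeR, in DESeq2, in edgeR's likelihood ratio test and with the block, which called 4.39% of all tested genes. BTC had the only unadjusted p under 0.05. It stood at 1.75, 0.932 and 1.32 CPM in the controls and 2.30, 2.11 and 1.81 CPM after daily PM2.5, so that every treated library was above every control (log2 0.64 ± 0.29 SE, unadjusted p = 0.0436, edgeR adjusted p = 0.401). EGFR stood at 213, 219 and 216 CPM in the controls and 153, 157 and 184 CPM after daily PM2.5, and ERBB2 at 154, 151 and 149 CPM and then at 143, 134 and 127 CPM, in both cases with every treated library below every control. Their log2 differences were -0.39 ± 0.35 and -0.17 ± 0.14 (SE, edgeR adjusted p = 0.710 and 0.697). The 24-h libraries, which enter the shared estimate of the spread, differed more between experiments in EGFR than the 7-day libraries did, with a coefficient of variation of 33.7% to 41.9% against 1.32% and 10.2%. With the block the edgeR adjusted p of EGFR was 0.0295, and in a fit of the 6 libraries of this protocol it was 0.00418, at a log2 size (-0.39 and -0.38) that stayed under 0.6. These 3 of 10 genes without overlap compare with 42.9% of all tested genes in this comparison.

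The other ligands were at similar levels in both 7-day groups. AREG stood at 40.5, 40.0 and 50.3 CPM in the controls and 48.8, 44.8 and 44.1 CPM after daily PM2.5, EREG at 9.73, 11.6 and 12.6 and then at 10.5, 9.91 and 13.2 CPM, and HBEGF at 10.3, 11.0 and 13.4 and then at 13.0, 12.7 and 14.2 CPM. The groups overlapped in each of these genes, and their log2 differences were 0.07 ± 0.23, -0.01 ± 0.43 and 0.20 ± 0.28 (SE). TGFA (20.7, 20.5 and 21.8 CPM in the controls, 26.0, 24.2 and 21.4 CPM after daily PM2.5), NRG1 (1.37, 0.546 and 1.00 CPM, then 1.10, 0.866 and 1.47 CPM) and ERBB3 (25.8, 25.6 and 25.9 CPM, then 27.8, 28.4 and 25.6 CPM) overlapped as well. ERRFI1 stood at 111, 113 and 125 CPM in the controls and 89.5, 89.7 and 113 CPM after daily PM2.5, with a log2 difference of -0.26 ± 0.23 SE.

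Whether daily and single exposure to 1 µg/cm2 gave different responses was tested as a difference of differences. None of the 10 genes passed, and none of all 17599 (0%), and 1245 of all genes but none of the 10 had an unadjusted p under 0.05. DESeq2 called 66 genes and the likelihood ratio test 13, again with none of the 10 among them. The differences ranged from -0.43 ± 0.49 SE for EGFR to 0.47 ± 0.61 SE for EREG on the log2 scale. Without the libraries of 24-h experiment 2, 5 of the 10 genes had an edgeR adjusted p under 0.05 at sizes under 0.6, with AREG (0.53) and EREG (0.58) higher in the daily response and EGFR (-0.49), ERBB3 (-0.42) and ERBB2 (-0.32) lower. None of these was called, beside 9.84% of all tested genes in the same fit.

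The controls of both protocols differed in 3 of the 10 genes, of which 2 were higher and 1 lower in the 7-day controls, while 21.9% of all tested genes passed, 11.1% higher and 10.8% lower. Plating density, days in culture, washing and the experiments themselves all differ between these controls and cannot be told apart. EREG was 2.54-fold lower in the 7-day controls, at 9.73, 11.6 and 12.6 CPM against 37.5, 11.4 and 37.0 CPM (log2 -1.34 ± 0.44 SE, edgeR adjusted p = 0.0333), and the 24-h control of experiment 2 lay within the 7-day values. The call was lost without any 1 of the 7-day controls or without the 24-h control of experiment 1 or 3 (edgeR adjusted p up to 0.114). HBEGF was 1.87-fold higher, at 10.3, 11.0 and 13.4 CPM against 6.20, 4.80 and 7.48 CPM (log2 0.90 ± 0.29 SE, edgeR adjusted p = 0.0314), a call that was lost without the 24-h control of experiment 1 or 2 or the 7-day control of experiment 2 or 3 (adjusted p up to 0.111). BTC was 3.01-fold higher, at 1.75, 0.932 and 1.32 CPM against 0.391, 0.471 and 0.461 CPM (log2 1.59 ± 0.32 SE, edgeR adjusted p = 0.00252). EREG and HBEGF, which rose together at 30 µg/cm2, thus differed in opposite directions between the controls.

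TGFA (log2 1.05 ± 0.40 SE, edgeR adjusted p = 0.0634) was at 20.5 to 21.8 CPM in the 7-day controls, above all 24-h controls, and did not pass. It passed without the filter on low counts, in DESeq2, in the likelihood ratio test, in the fit of these 6 libraries and in the fit without experiment 2. ERBB3 (log2 0.50 ± 0.16 SE, edgeR adjusted p = 0.0352) was also above all 24-h controls but under the size threshold. HBEGF, TGFA, BTC and ERBB3 were the 4 of 10 genes whose controls did not overlap between the protocols, as in 52.3% of all tested genes. Without experiment 2, TGFA, NRG1 (-1.21) and ERBB3 (0.64) were called too, 6 of 10 beside 31% of all tested genes.

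**Figure D5:**
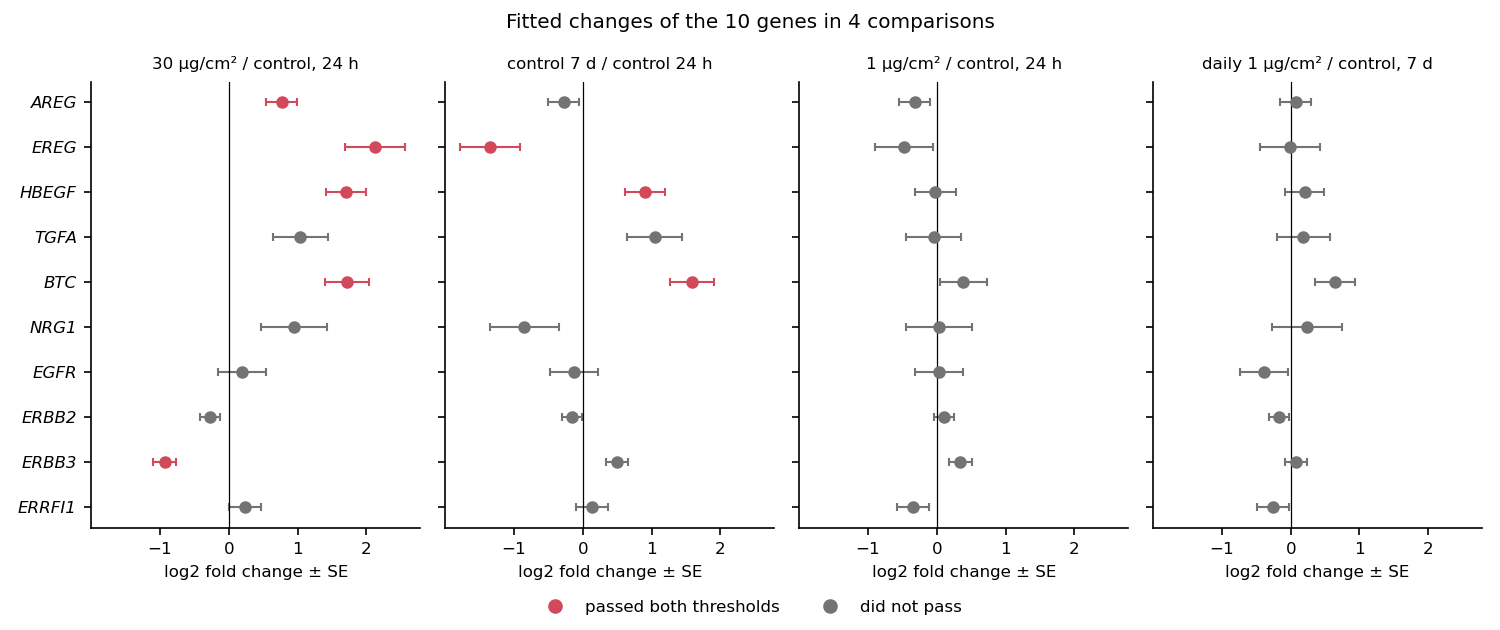
Fitted log2 fold change with its SE for the 10 genes in 4 comparisons (panels, on 1 shared axis), in red where both thresholds were passed. The calls fall in the panels for 30 µg/cm2 at 24 h (5 genes) and for the controls of both protocols (3 genes), and no gene passed in either comparison of 1 µg/cm2 with its control.

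The rest of the pathway was read from lists chosen by function, with earlier results of these data known. Of 6 further family members (EGF, EPGN, NRG2, NRG3, NRG4 and the receptor ERBB4), 3 had enough counts to be tested, and EGF, NRG3 and ERBB4 stayed at or below 0.383 CPM in every library. EPGN, which encodes the EGFR ligand epigen, rose at 30 µg/cm2 from 0.361 ± 0.106 to 1.56 ± 0.636 CPM (SD, n = 3; log2 2.08 ± 0.60 SE, edgeR adjusted p = 0.0423). NRG2, a neuregulin, was lower at 30 than at 1 µg/cm2 (0.782 ± 0.555 against 1.94 ± 0.263 CPM, log2 -1.29 ± 0.38 SE, edgeR adjusted p = 0.0447). Against control, NRG2 at 30 µg/cm2 did not pass in the fit of all libraries (log2 -1.20, edgeR adjusted p = 0.0603), but it was lower with the block (log2 -1.23, adjusted p = 0.0248). NRG4 was lower in the 7-day than in the 24-h controls (log2 -1.39 ± 0.47 SE, edgeR adjusted p = 0.0394). EPGN also passed after daily PM2.5 with the block (log2 2.29, edgeR adjusted p = 0.0112), but not without it (adjusted p = 0.177), and its 7-day values were 0.669 ± 0.694 CPM against 0.122 ± 0.0311 CPM in the controls.

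Of 6 genes of ligand release, 1 was called at 30 µg/cm2, beside 8.07% of all tested genes. RHBDF2 encodes iRhom2, which carries ADAM17 to the cell surface, and it rose from 28.0 ± 5.44 to 49.9 ± 8.94 CPM (log2 0.83 ± 0.19 SE, edgeR adjusted p = 0.0116). TIMP3, an inhibitor of ADAM17, was lower at 30 than at 1 µg/cm2 (log2 -0.61 ± 0.17 SE, edgeR adjusted p = 0.0374) and higher in the 7-day than in the 24-h controls, at 65.5 ± 3.59 against 16.8 ± 4.14 CPM (log2 1.96 ± 0.18 SE, edgeR adjusted p = 9.08e-06). ADAM17 itself, named after its values were seen, did not pass at 30 µg/cm2 in the fit of all libraries (log2 0.65, edgeR adjusted p = 0.387), but was higher without experiment 2 (log2 0.77, edgeR adjusted p = 2.30e-05), where 19.1% of all tested genes were called. ADAM10, of the same list and also named after its values were seen, went the other way. It stood at 150 ± 13.8 CPM in the controls and 104 ± 17.5 CPM after 30 µg/cm2. Its log2 difference was -0.53 ± 0.16 SE (edgeR adjusted p = 0.0455), under the size threshold. Without experiment 2 it was -0.48 (edgeR adjusted p = 9.32e-05), again not called. FRMD8, which stabilizes iRhoms, was lower in the 7-day controls (log2 -0.68 ± 0.11 SE, edgeR adjusted p = 0.000641).

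Of 21 adaptors and kinases downstream of the receptors, 1 was called at 30 µg/cm2 in the fit of all libraries, beside 8.07% of all tested genes. PIK3R1, a regulatory subunit of PI3K, fell from 92.9 ± 9.34 to 55.6 ± 12.3 CPM (log2 -0.74 ± 0.21 SE, edgeR adjusted p = 0.0389). PIK3CA, a catalytic subunit of PI3K named after its values were seen, passed without experiment 2 (log2 0.61, edgeR adjusted p = 0.000108) but not with all libraries (log2 0.43, adjusted p = 0.360). Without experiment 2, 19.1% of all tested genes were called. The median log2 difference over the 21 genes was -0.03. GAB1 and BRAF were higher in the 7-day than in the 24-h controls (log2 0.63 ± 0.12 and 0.82 ± 0.18 SE, edgeR adjusted p = 0.00161 and 0.00480). Of all tested genes, 11.1% were called higher there. Of 14 genes that promote or oppose receptor down-regulation, 1 was called at 30 µg/cm2, beside 8.07% of all tested genes. SH3KBP1, an adaptor of receptor endocytosis, rose from 15.7 ± 2.59 to 30.3 ± 3.25 CPM (log2 0.94 ± 0.17 SE, edgeR adjusted p = 0.00344). With the block, CBL and UBASH3B, named after their values were seen, were called as well (log2 0.69 and 0.83), where 15.2% of all tested genes were called. CBLC, LRIG3 and RNF41, of which RNF41 encodes a ubiquitin ligase known to act on ERBB3, were higher in the 7-day controls (log2 1.41, 0.77 and 0.68). Between the controls 21.9% of all tested genes were called, 11.1% of them all being higher in the 7-day controls.

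Of 10 transcripts that ERK signalling is known to induce, EGR1, IER3 and FOSL1 rose at 30 µg/cm2 and none fell, with a median log2 difference of 1.46 over the 10. Of all tested genes, 3.82% were called higher in that comparison. EGR1, an early growth response transcription factor, rose from 23.7 ± 5.38 to 805 ± 498 CPM (log2 5.09 ± 0.46 SE, edgeR adjusted p = 2.41e-05). IER3 rose from 1.84 ± 1.43 to 11.3 ± 4.96 CPM (log2 2.59 ± 0.68 SE, edgeR adjusted p = 0.0256), and FOSL1, an AP-1 subunit, from 27.0 ± 15.8 to 117 ± 28.7 CPM (log2 2.12 ± 0.40 SE, edgeR adjusted p = 0.00405). The block raised the count to 7 of 10, adding DUSP6, SPRY4, ETV4 and ETV5, where 15.2% of all tested genes were called in either direction. Without experiment 2 there were 6 higher and 2 lower (DUSP4 and SPRY2, at -0.81 both), beside 19.1% of all tested genes.

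Between 30 and 1 µg/cm2, 7 of the 10 ERK-output transcripts were higher and none lower, with a median log2 difference of 2.60, beside 3.62% of all tested genes called higher and 4.22% called lower. DUSP6, a phosphatase of ERK, stood at 50.6 ± 17.8 against 4.81 ± 2.02 CPM (log2 3.38 ± 0.65 SE, edgeR adjusted p = 0.00537). At 1 µg/cm2 none was called in the fit of all libraries (median log2 difference -0.86). SPRY2 was lower with the block (log2 -0.86, edgeR adjusted p = 0.0120). Without the libraries of experiment 2, 8 of the 10 were lower. That included DUSP6, at -2.07 (edgeR adjusted p = 5.67e-07), and was beside 2.11% of all tested genes called in either direction in the same fit. After daily PM2.5 none was called in the fit of all libraries. Without 24-h experiment 2, EGR1 and ETV5 were higher after daily PM2.5 (log2 0.67 and 0.71, edgeR adjusted p = 5.04e-05 and 0.000115). The 7-day libraries are the same in both fits, and the sizes with all libraries were also 0.67 and 0.71 (edgeR adjusted p = 0.540 and 0.695). These calls thus rest on the shared estimate of the spread, which the 24-h libraries enter. The share of all tested genes called in that fit is not given here. In the 7-day controls, FOSL1, IER3, PHLDA1, DUSP4 and SPRY2 were lower than in the 24-h controls (log2 -1.03 to -2.58, edgeR adjusted p = 0.00198 to 0.0320), beside 10.8% of all tested genes called lower. Without experiment 2, 9 of the 10 were lower in the 7-day controls and EGR1 was higher (log2 0.70), where 31% of all tested genes were called. In the difference between the daily and the single 1 µg/cm2 responses, none of the 10 was called in the fit of all libraries, and 9 were higher without experiment 2, beside 9.84% of all tested genes. Receptor and kinase activity was not measured.

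Markers of other cell types were read beside these results. Of 7 airway epithelial markers, KRT5, KRT8, KRT19 and CDH1 fell at 30 µg/cm2, beside 4.24% of all tested genes called lower. KRT5, a basal cell keratin, fell most, from 748 to 136 CPM (log2 -2.46 ± 0.18 SE, edgeR adjusted p = 7.57e-06). The summed level of the 7 markers was 2000 to 2520 CPM in the 24-h controls and 843 to 1310 CPM after 30 µg/cm2, in the same libraries in which EREG and HBEGF were high and ERBB3 was low. After daily PM2.5, KRT5 and TP63 fell, where 0.227% of all tested genes were called. The sum of the 7 markers was then 1410 to 1560 CPM against 2270 to 2780 CPM in the controls. With the block, KRT19 and CDH1 were lower after daily PM2.5 as well (log2 -1.02 and -0.61), where 4.39% of all tested genes were called. Between the controls, KRT19, CDH1, EPCAM and TP63 were higher in the 7-day protocol (log2 1.17 to 1.36) and KRT8 and KRT18 lower (log2 -0.79 and -1.35). Thus 6 of the 7 markers were called, beside 21.9% of all tested genes. The sum of 5 fibroblast markers was 44.4 to 91.0 CPM in all groups, and none of them was called in the fit of all libraries. Of the leukocyte markers, PTPRC and CD3E reached at most 0.231 CPM and CD14 stood at 2.30 to 23.4 CPM (lower at 30 µg/cm2 without experiment 2, at log2 -2.23 against control, but not called in the fit of all libraries), and the 3 endothelial markers summed to at most 0.345 CPM. The part of the epithelial markers in the changes of the 10 genes, and in their differences between the controls, was not tested.

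The genes whose log2 CPM followed each of the 10 most closely over the 15 libraries were also listed. These libraries share groups and experiments, so Pearson's r is a description with n = 15 libraries. EREG was followed most closely by GUF1 (r = 0.984) and FOSL1 (r = 0.980), HBEGF by SLC31A1 (0.967), VPS37A (0.958) and VEGFA (0.954), and AREG by ZNF30 (0.942), IL1RL1 (0.891) and SERHL2 (0.876). ERBB3 was followed by RAB6B (0.969) and RBM47 (0.968), EGFR by NOTCH2 and RASAL2 (0.985 each), ERBB2 by PRRT3 (0.964) and TGFA by ANKRD40 (0.982). BTC was followed most closely by MSI1 (0.935), NRG1 by DYRK3 (0.950) and ERRFI1 by SULF2 (0.924). None of the 10 genes was among the closest 3 of another.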

How the data were processed

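RNA was sequenced from 15 libraries of BEAS-2B cells after poly-A selection. The authors aligned single-end reads to GRCh38 with STAR and counted them per gene with featureCounts, and the deposited counts are whole numbers without normalization. The submitters' processing notes name hg19, but the coordinates in the deposited table are those of GRCh38. The strand setting and the annotation release are not given in the sources used here, so reads of ERBB2 and EGFR cannot be told apart from those of the genes they overlap on the other strand. The table's exon lengths were used for TPM, and gene names were given to 57437 of 58219 identifiers from GENCODE. Depth was 21460981 to 34724765 counts per library.

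Groups and experiment numbers came from the sample names. The tests were run in edgeR 4.0.16 under R 4.3.3: filterByExpr by group (17599 genes), trimmed mean of M-values (TMM), and a quasi-likelihood fit (earlier mode) of all 15 libraries with a mean per group. P-values were adjusted by Benjamini-Hochberg over all tested genes, and genes were called at an adjusted p-value under 0.05 and a log2 fold change of at least 0.6 in size. The SE was derived from the fold change and its F statistic. The fit was tested on simulated counts. Alternatives were RLE scaling, no filter, a filter at 1 CPM in 3 libraries, DESeq2 1.42.0, the likelihood ratio test, edgeR's current mode, the replicate block, the compared groups alone, no libraries of 24-h experiment 2, and each library left out in turn.

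The series record gives the number as the experimental batch. Deviations from group means correlated across genes at 0.529 on average between libraries of the same number at 24 h (0.201 to 0.721). Between different numbers at 24 h the average was -0.231 (-0.683 to 0.453). In the 7-day protocol the averages were 0.154 for the same number and -0.0774 for different numbers. Deviations from a group mean cancel out within the group. Positive values for the same number therefore bring negative averages for different numbers, which add no separate evidence of pairing. Every same-numbered pair within a protocol was above 0.1, and with the batch record the numbers were taken to pair libraries there. At 24 h, libraries of experiments 1 and 3 correlated at up to 0.453, above the lowest same-numbered pair (0.201). The correlations alone therefore set experiment 2 apart but do not separate experiments 1 and 3. Across protocols the same numbers correlated at -0.0613, and they were not paired.

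The 10 genes and the gene lists were chosen with earlier results of these data known. All 10 genes are named, pathway genes where they were called in at least 1 of the 6 comparisons (CBL, UBASH3B, ADAM10, ADAM17, PIK3CA, EGF, NRG3 and ERBB4 were named beyond this rule, after their values were seen), cell type markers as checks of the cell type, and the 3 genes with the highest r for each of the 10. Promoters were taken from RefSeq on GRCh38.p14, and those of 8 of the 10 genes were searched. ERBB3 had no match. Promoters on chromosome 8, where NRG1 lies, were left out of the search, so nothing is said of NRG1. The DNA methylation data were not analysed here.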

Additional observations from a re-analysis of the deposited data

Results flagged for a closer look

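ERBB2 moved in opposite directions under single and daily exposure to 1 µg/cm2 of PM2.5 in all 3 same-numbered pairs of treated and control libraries. It was flagged for this pattern of signs, and the share of all genes with the pattern is not given here. At 24 h, the treated library was higher by 0.242, 0.0490 and 0.0457 on the log2 scale, and after daily exposure it was lower by 0.109, 0.170 and 0.224. The 24-h groups overlapped, and with 1 library left out the 24-h log2 difference ranged from -0.00501 to 0.273. The difference of the responses was -0.274 ± 0.20 SE (edgeR adjusted p = 0.849), which did not pass. Without the libraries of 24-h experiment 2 it was -0.32 (edgeR adjusted p = 0.0381), still under the size threshold of 0.6. The edgeR adjusted p was 0.167 with the replicate block and 0.753 with the compared groups alone.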

How the results depend on the processing

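Of 60 values (10 genes in 6 comparisons), 46 kept their direction under every alternative, and none of the called values changed sign. With the replicate block, 7 genes were called in both comparisons with 30 µg/cm2 and none in the others. No paired analysis was possible for the controls of both protocols because their numbers belong to different experiments. The number of genes called fell from 5 to 0 (30 µg/cm2 against control) and from 5 to 1 (30 against 1 µg/cm2) when only the compared groups were fitted. For 30 against 1 µg/cm2 the count over all genes in that fit is not given here, so the loss is not set against all genes. Without 24-h experiment 2 it was 8 for 30 against 1 µg/cm2 and 6 for the controls, where leaving out 1 library gave 1 to 4. At 30 µg/cm2 AREG was also not called under RLE scaling. Against 1 µg/cm2, AREG was lost without experiment 1 at 30 µg/cm2 and BTC without experiment 3. TGFA passed against control without experiment 2 at 1 or 30 µg/cm2. The cause was not tested.

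At 1 µg/cm2, HBEGF turned to 0.000535 with the filter at 1 CPM and to 0.000948 with the block, and EGFR to -0.00529 with the block. BTC turned to -0.0210 in the difference of responses without experiment 2. With 1 library left out, log2 differences that changed sign ranged, for 30 µg/cm2 against control, from -0.0379 to 0.502 (EGFR); for 1 µg/cm2 from -0.150 to 0.151 (HBEGF), -0.345 to 0.306 (TGFA), -0.292 to 0.351 (NRG1), -0.215 to 0.330 (EGFR) and -0.00501 to 0.273 (ERBB2); for 30 against 1 µg/cm2 from -0.143 to 0.461 (EGFR); for daily exposure from -0.147 to 0.0703 (EREG) and -0.0502 to 0.555 (NRG1); for the controls from -0.375 to 0.100 (EGFR); and for the difference of responses from -0.113 to 0.538 (TGFA), -0.102 to 0.539 (NRG1) and -0.0501 to 0.186 (ERRFI1).

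Counts over all genes moved more. At 30 µg/cm2, 1420 genes passed, 2681 with the block, 3430 without experiment 2 and 360 with the compared groups alone. At 1 µg/cm2, 11 passed, 74 with the block, 378 without experiment 2, 39 in DESeq2 and 2 with the compared groups alone. After daily exposure, 40 passed, 773 with the block and 251 in DESeq2. Depth limits BTC and NRG1, with 7 to 73 and 16 to 133 counts per library.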

Other observations

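Among the 10 genes themselves, log2 CPM over the 15 libraries went together most closely for EREG and NRG1 (Pearson's r = 0.877), TGFA and BTC (0.810), HBEGF and TGFA (0.801) and AREG and EREG (0.746). The most negative values were those of EREG and ERBB3 (-0.969), TGFA and ERBB2 (-0.918), AREG and ERBB3 (-0.845) and HBEGF and ERBB2 (-0.838). EREG and BTC, neighbours of AREG on chromosome 4, had a value of -0.02 with each other. The libraries share groups and experiments, and these values are descriptions over n = 15 libraries.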
